A study of Homo sapiens with 12 samples.

Results

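RAB GTPases, the family of small GTP-binding proteins that direct vesicle traffic, were followed in HepG2 cells kept in 4 culture media. Members were the genes whose symbol is RAB followed by a number and at most a letter and a further digit, each Ensembl identifier counted once. This gave 40 of the 10940 genes in the count table, and all 40 passed the filter on low counts. A reference list of human genes holds 71 such symbols, and the others, among them RAB3A and RAB25, are not analysed here.

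HepG2 is an established human cell line grown out of a liver tumour, labelled wild type in every sample. The media were Plasmax-TE+Fe (Plasmax lacking its trace elements but given iron), Plasmax-TE (Plasmax lacking them), complete Plasmax (composed to resemble human plasma) and EMEM (Eagle's minimum essential medium, in which the line was maintained). Cells were seeded in EMEM, changed to their medium 24 h later, given fresh medium after 48 h and collected after 96 h. All 4 media contained 10% heat-inactivated fetal bovine serum, which brings trace elements and iron of its own, and the dose of added iron is not given in the labels. There were 3 libraries per medium, 12 in all, and the labels do not say whether they came from separate cultures, and p-values then rest on the differences among libraries, which may be technical.

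A RAB protein is switched on when an exchange factor (GEF) loads it with GTP and off when a GTPase-activating protein (GAP) triggers hydrolysis. Geranylgeranyl lipids, attached by RAB geranylgeranyl transferase with the help of an escort protein, hold it on the membrane. In its active state it recruits effectors such as tethers and motors, and each member marks its own compartments, from the endoplasmic reticulum and Golgi to endosomes, lysosomes and secretory vesicles. Hepatocytes rely on this traffic to secrete plasma proteins, to take up transferrin and lipoproteins, and to carry cargo across the cell to the bile canaliculus.

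QuantSeq libraries count the 3′ ends of messenger RNA, close to 1 tag per transcript, so levels are given as CPM (a library's counts scaled to a common total of 1000000) without division by length. Total counts ran from 1562125 to 2384090 per library, and a single count was worth 0.419 to 0.640 CPM. The first Plasmax-TE library and the second Plasmax-TE+Fe library, numbered 87 and 88 in sequence, stood apart on the second principal component of all genes (-35.5 and -32.0, against -8.1 to 19.6 in the other libraries). All 10 listed hepatocyte and hepatoma markers were present, with a summed level of 20752 to 23132 CPM in Plasmax-TE+Fe, 26625 to 29741 in Plasmax-TE, 14128 to 16568 in Plasmax and 42288 to 46991 in EMEM. Of the fibroblast, endothelial and leukocyte markers only COL1A1 (0.541 to 8.36 CPM) and CD14 (0.419 to 9.70 CPM) were in the table.

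Averaged over the 12 libraries, RAB genes had mean levels from 3.75 CPM for RAB4B to 688 CPM for RAB5C, with a median of 43.4 CPM (29.8 CPM over all genes tested). RAB5C, an early endosome GTPase, alone gave 24.4% ± 1.17 of the family's counts in Plasmax-TE+Fe, 24.6% ± 4.20 in Plasmax-TE, 25.9% ± 1.94 in Plasmax and 19.1% ± 2.63 in EMEM (SD, n = 3 each). It was followed by RAB1A (203 CPM), RAB10 (170 CPM), RAB7A (161 CPM) and RAB2A (153 CPM). The summed family level was 2767 ± 249 CPM in Plasmax-TE+Fe, 2663 ± 260 in Plasmax-TE, 3359 ± 292 in Plasmax and 2806 ± 244 in EMEM. Without RAB3B and RAB17 the sums were 2668 ± 238, 2549 ± 245, 3184 ± 280 and 2420 ± 220 CPM in the same order of media. All members but 7 had at least 10 counts in every library.

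**Figure D1:**
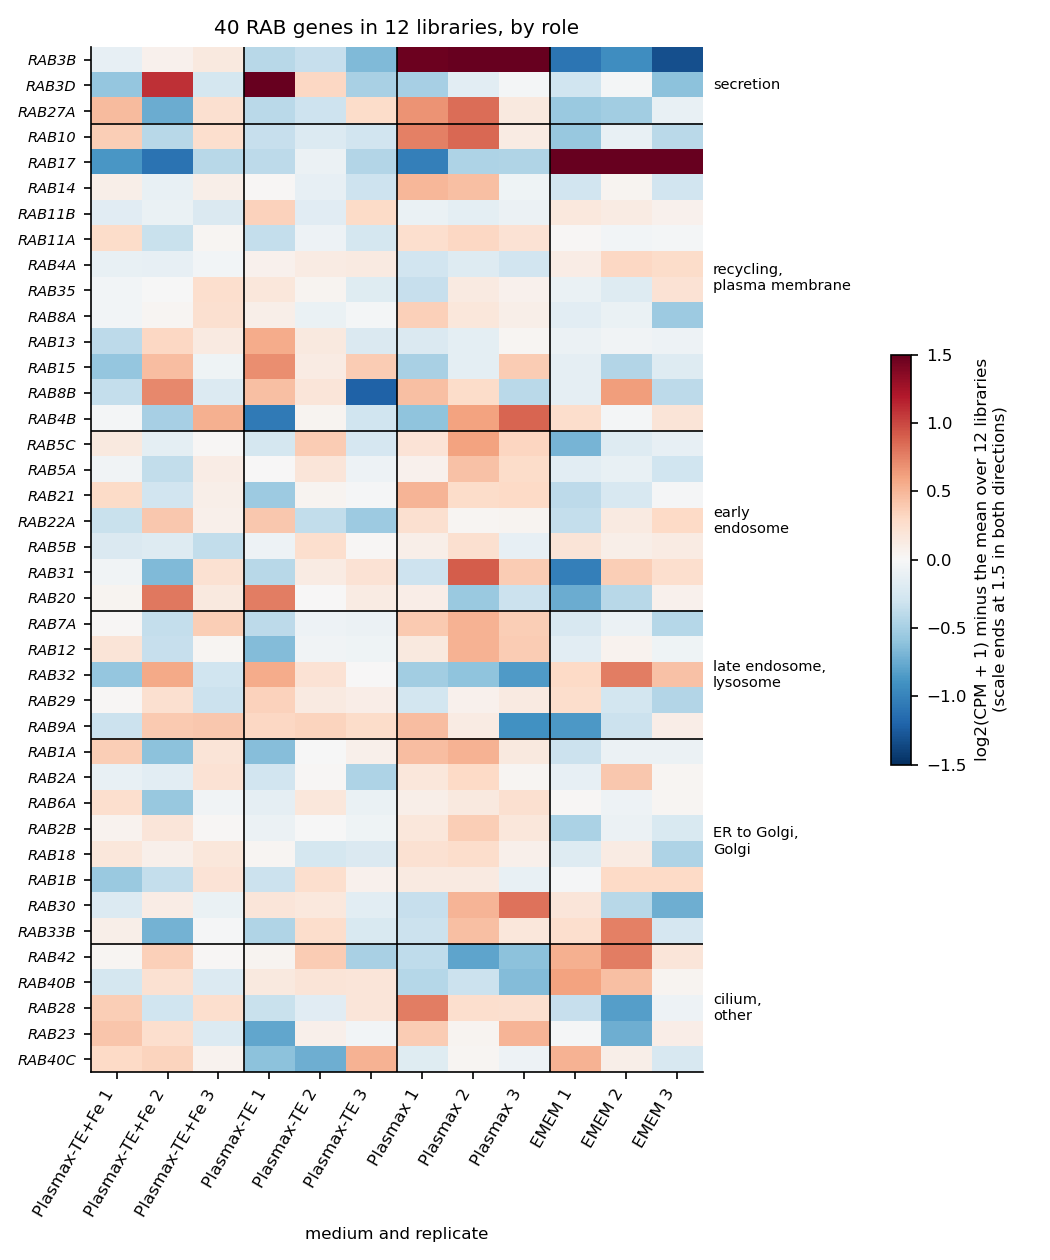
Each cell shows the log2(CPM + 1) of a RAB gene in a library minus the gene's mean over the 12 libraries, with genes down the page by role and libraries across by medium; the colour scale ends at 1.5 in both directions. RAB3B in the 3 Plasmax libraries (1.47 to 1.69) and RAB17 in the 3 EMEM libraries (1.63 to 1.82) lie at the end of the scale, as does RAB3D in Plasmax-TE replicate 1 (1.57).

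RAB3B (ENSG00000169213, chromosome 1), a GTPase of secretory vesicles, was the member with the largest rise in Plasmax. It stood at 31.5, 36.2 and 38.2 CPM in Plasmax-TE+Fe, at 25.7, 26.9 and 21.5 CPM in Plasmax-TE, at 97.3, 114 and 102 CPM in Plasmax, and at 15.6, 17.6 and 13.2 CPM in EMEM. Plasmax libraries were the highest and EMEM libraries the lowest, and no library of any medium overlapped those of another. Relative to EMEM, RAB3B was 6.51-fold higher in Plasmax (log2 fold change 2.7 ± 0.18, SE) and 2.19-fold higher in Plasmax-TE+Fe (1.13 ± 0.19). Relative to Plasmax it was 4.21-fold lower in Plasmax-TE (-2.07 ± 0.17) and 2.97-fold lower in Plasmax-TE+Fe (-1.57 ± 0.16).

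Each of these 4 differences passed the quasi-likelihood test of edgeR at 0.05, with p-values adjusted by the Benjamini-Hochberg method over the 10459 genes tested (the edgeR adjusted p from here on). It was 4.0e-09 for Plasmax against EMEM, 5.6e-04 for Plasmax-TE+Fe against EMEM, 3.4e-07 for Plasmax-TE against Plasmax and 2.3e-05 for Plasmax-TE+Fe against Plasmax. By p-value RAB3B was the gene at place 3 of 10459 in Plasmax-TE against Plasmax and at place 2 in Plasmax-TE+Fe against Plasmax. It had been singled out with earlier results of these data known. RAB3B in Plasmax-TE+Fe exceeded that in Plasmax-TE by 0.50 ± 0.18 on the log2 scale without passing (edgeR adjusted p = 0.33), although the libraries did not overlap. Plasmax-TE exceeded EMEM by 0.63 ± 0.20 (edgeR adjusted p = 0.077, and 0.045 when the runs of library numbers described next were added to the model). Within the 3 runs of 4 consecutive library numbers, the log2 ratio of Plasmax-TE to Plasmax was -1.92, -2.09 and -2.25, and that of Plasmax to EMEM was 2.64, 2.7 and 2.96. Because whole cultures were counted, more RNA per cell and more cells with the transcript cannot be told apart.

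RAB17 (ENSG00000124839, chromosome 2), an epithelial GTPase of apical recycling endosomes known from work on transcytosis in polarised cells, showed a different order of media. Its levels were 59.3, 50.3 and 81.5 CPM in Plasmax-TE+Fe, 82.7, 103 and 80.6 CPM in Plasmax-TE, 53.1, 78.9 and 79.9 CPM in Plasmax, and 341, 384 and 388 CPM in EMEM. Every EMEM library lay above every library of the other media, whereas Plasmax-TE+Fe overlapped with Plasmax-TE and with Plasmax. Plasmax-TE libraries lay above those of Plasmax, from 80.6 CPM up against at most 79.9 CPM. RAB17 was 6.01-fold lower in Plasmax-TE+Fe than in EMEM (log2 fold change -2.59 ± 0.20), 4.29-fold lower in Plasmax-TE (-2.10 ± 0.19) and 5.40-fold lower in Plasmax (-2.43 ± 0.20). The edgeR adjusted p was 3.7e-08, 1.5e-06 and 5.8e-08 for these comparisons.

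Among the Plasmax media the RAB17 differences did not pass. Plasmax-TE differed from Plasmax by 0.33 ± 0.20 (edgeR adjusted p = 0.30), Plasmax-TE+Fe from Plasmax-TE by -0.49 ± 0.20 (0.44) and Plasmax-TE+Fe from Plasmax by -0.16 ± 0.20 (0.80). RAB17 made up 2.29% ± 0.438 of the family's counts in Plasmax-TE+Fe, 3.33% ± 0.138 in Plasmax-TE, 2.11% ± 0.452 in Plasmax and 13.2% ± 0.451 in EMEM (SD, n = 3 each), where only RAB5C was higher. Within the runs of library numbers, the log2 ratio of Plasmax to EMEM was -2.68, -2.28 and -2.28. The summed hepatocyte markers given above were also highest in EMEM, and their part in the RAB17 difference was not tested.

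**Figure D2:**
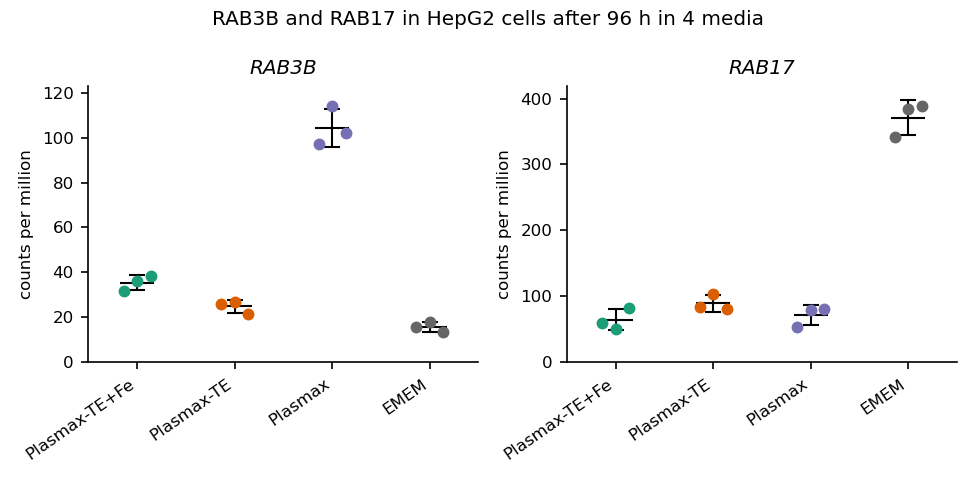
Points are the CPM of RAB3B (left) and RAB17 (right) in each library by medium, with the mean and SD of 3 libraries in black and the vertical axes starting at 0. RAB3B peaks in Plasmax, at 97.3 to 114 CPM, and RAB17 peaks in EMEM, at 341 to 388 CPM.

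The 250 bases before the RefSeq start of RAB3B and RAB17 are shown because these genes had the largest changes, and those of RAB10, RAB32 and RAB7A because they are the other members that differed between Plasmax-TE and Plasmax. Sequences are from RefSeq (GRCh38.p14), read 5′ to 3′ on the gene's own strand, with capitals marking motif matches on either strand. The window of RAB3B is chr1:51990701-51990950 and that of RAB17 chr2:237590735-237590984, both on the minus strand, while that of RAB10 is chr2:26033834-26034083, that of RAB32 chr6:146543583-146543832 and that of RAB7A chr3:128725933-128726182, all on the plus strand.
RAB3B: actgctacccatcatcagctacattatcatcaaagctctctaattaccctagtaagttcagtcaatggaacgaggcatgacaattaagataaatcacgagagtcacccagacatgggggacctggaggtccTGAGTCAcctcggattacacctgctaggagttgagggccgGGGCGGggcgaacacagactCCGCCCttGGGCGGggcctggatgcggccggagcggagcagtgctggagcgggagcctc
RAB17: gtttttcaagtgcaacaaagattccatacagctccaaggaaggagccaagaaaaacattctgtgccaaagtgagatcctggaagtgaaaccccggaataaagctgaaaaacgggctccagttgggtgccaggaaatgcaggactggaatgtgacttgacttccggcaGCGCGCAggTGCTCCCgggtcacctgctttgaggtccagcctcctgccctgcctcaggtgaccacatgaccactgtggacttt
RAB10: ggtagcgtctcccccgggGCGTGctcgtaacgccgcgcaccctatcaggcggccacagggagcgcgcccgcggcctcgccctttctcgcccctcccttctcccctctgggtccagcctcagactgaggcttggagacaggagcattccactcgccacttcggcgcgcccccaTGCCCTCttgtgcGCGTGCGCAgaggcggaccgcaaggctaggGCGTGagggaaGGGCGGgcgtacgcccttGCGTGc
RAB32: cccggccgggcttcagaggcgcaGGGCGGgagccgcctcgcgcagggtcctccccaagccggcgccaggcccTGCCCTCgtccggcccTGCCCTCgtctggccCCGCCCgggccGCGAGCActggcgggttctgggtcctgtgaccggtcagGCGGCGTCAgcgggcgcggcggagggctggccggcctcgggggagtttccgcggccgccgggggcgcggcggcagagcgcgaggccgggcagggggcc
RAB7A: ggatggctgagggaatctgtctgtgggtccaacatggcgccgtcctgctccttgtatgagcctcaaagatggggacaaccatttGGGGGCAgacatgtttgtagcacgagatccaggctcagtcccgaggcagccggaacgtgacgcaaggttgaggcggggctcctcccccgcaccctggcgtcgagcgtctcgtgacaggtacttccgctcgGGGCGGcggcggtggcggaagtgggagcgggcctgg

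The motifs searched, on both strands, were the metal response element core TGCNCNC, the antioxidant response element TGACNNNGC, the AP-1 site TGANTCA, the xenobiotic response element core GCGTG, the E-box CACGTG, the GC box GGGCGG and the TATA box TATAAA. The RAB3B window held 1 AP-1 site and 3 GC boxes and had no match to the metal response core. The RAB17 window held 2 metal response cores and none of the other motifs. RAB10 had 2 metal response cores, 4 xenobiotic response cores and 1 GC box, with 1 metal response core overlapping a xenobiotic one. RAB32 had 3 metal response cores, 1 antioxidant response element and 2 GC boxes, and RAB7A had 1 metal response core and 1 GC box.

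Several of these motifs are common. A metal response core occurred in 20 of the 34 RAB promoters that could be matched (58.8%) and in 48.4% of 27305 promoters of the same length, and an AP-1 site in 2 of 34 (5.88%) and 6.6%. The xenobiotic response core occurred in 11 of 34 (32.4%) and in 31.9% of all, and the antioxidant response element in 7 of 34 (20.6%) and in 11% of all. A GC box was present in 30 of 34 RAB promoters (88.2%), against 42.3% of all, and a TATA box in none of 34, against 11.1% of all. The median GC content was 65.6% in RAB promoters and 58.0% in all. The 27305 promoters were not limited to genes measured here, while the 34 RAB genes all were. These gaps therefore cannot be read as a trait of the family. A match describes the letters of the window and is not a measured binding site.

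In Plasmax against EMEM, the comparison of the plasma-like with the maintenance medium, 11 of 40 RAB genes passed (27.5%), where 21.4% of all genes tested did. RAB3B, RAB10, RAB27A, RAB2B, RAB5C and RAB7A rose (6 of 40, 15.0%, against 9.90% of all genes). RAB17, RAB32, RAB42, RAB40B and RAB4A fell (5 of 40, 12.5%, against 11.5%). A log2 difference of at least 1 was reached by 4 of these, or 10.0%, where 8.76% of all genes did so. The median log2 fold change over the family was 0.21 (-0.01 over all genes), and it was 0.21 too without RAB3B and RAB17. Without Plasmax replicate 3 the family median was 0.10. The remaining 38 members spanned -1.27 to 0.96, so that RAB3B at 2.7 and RAB17 at -2.43 lay outside the range of the rest. Both genes had been singled out with earlier results of these data known, so this contrast is not a test of them. The count was 7 without EMEM replicate 1 (15.2% of all genes passed), 7 without Plasmax replicate 2 (13.9% of all) and 15 with the runs of library numbers in the model (27.8% of all), which added RAB1A, RAB5A, RAB14 and RAB21. The libraries of Plasmax and EMEM did not overlap for 20 of 40 members, and for 39.8% of all genes.

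In Plasmax-TE against Plasmax, the comparison that removes the trace elements, 4 of 40 members passed (10.0%, against 11.2% of all genes). RAB3B, RAB10 and RAB7A fell (3 of 40, 7.50%, against 5.63%) and RAB32 rose (1 of 40, against 5.61%). The count was 1 without Plasmax replicate 2 (4.46% of all genes passed), 2 without Plasmax-TE replicate 1 (6.97% of all), 7 without Plasmax-TE+Fe replicate 2 (14.7% of all) and 11 with the runs of library numbers in the model. That last model called 17.8% of all genes, and the 7 members it added were RAB1A, RAB2A, RAB5C, RAB11A, RAB12, RAB14 and RAB21. Members without RAB3B and RAB17 spanned -1.01 to 0.97, and the family median was -0.23 (0.02 over all genes). Fold changes below 0 were found for 26 of 40 members and for 5064 of 10459 genes. The libraries of both media did not overlap for 15 of 40 members (37.5%), and for 30.4% of all genes. These 2 comparisons share the Plasmax libraries, so values that are high in one and low in the other are not independent.

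**Figure D3:**
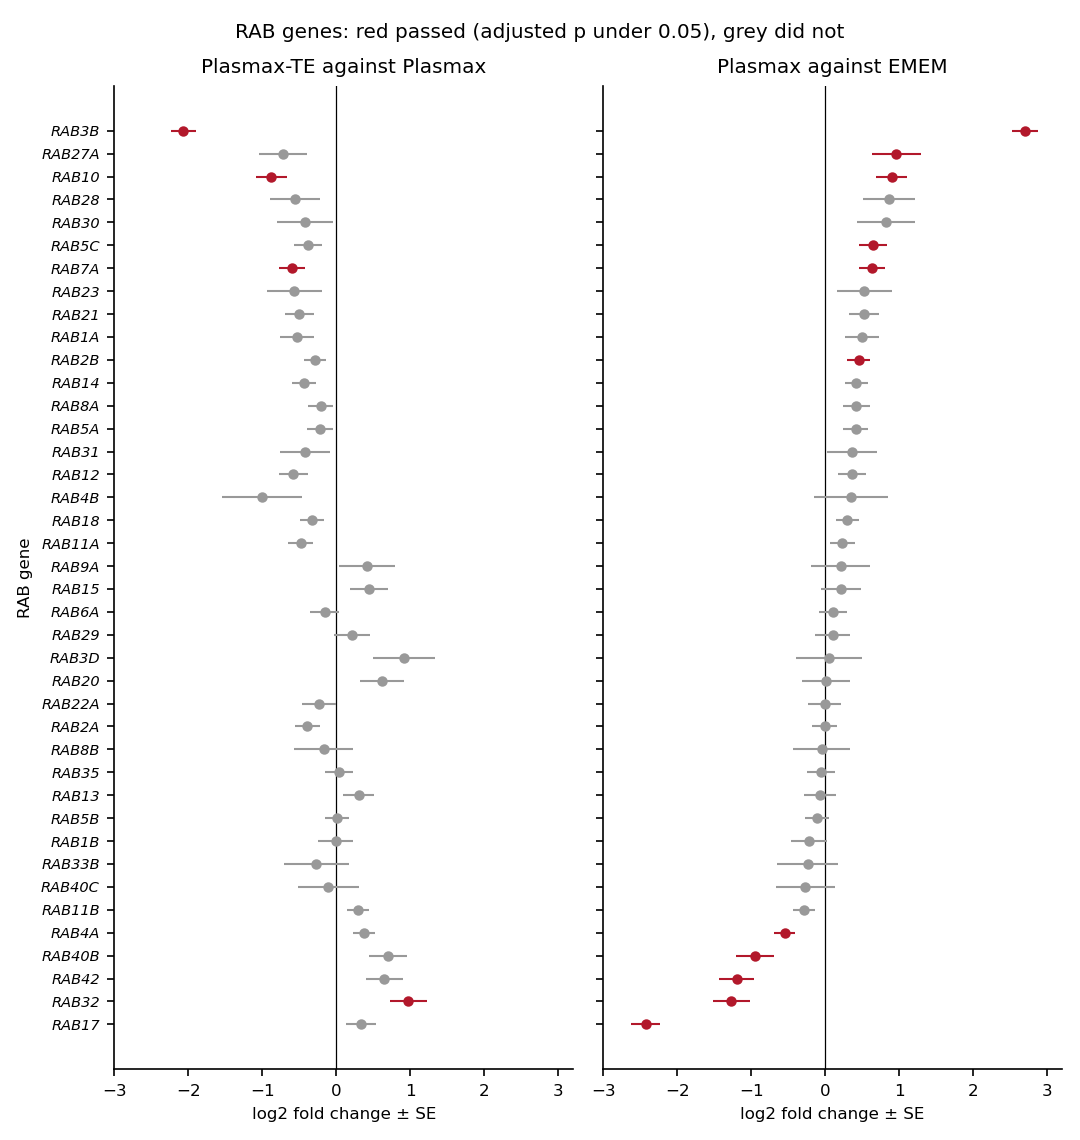
Log2 fold changes with their SE are plotted for the 40 RAB genes in Plasmax-TE against Plasmax (left) and Plasmax against EMEM (right), ordered by the right panel, with members that passed (edgeR adjusted p under 0.05) in red. RAB3B, at -2.07 and 2.7, lies outside the spread of the other members in both panels, and RAB17 does so at -2.43 in the right panel only. Both genes were singled out with earlier results of these data known. The panels share the Plasmax libraries.

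In Plasmax-TE+Fe against Plasmax-TE, the comparison that adds iron, 0 of 40 members passed in edgeR, where 0.258% of all genes did. DESeq2 and limma-voom also called 0. At an unadjusted p under 0.05 there were 4 members (10.0%, against 9.31% of all genes), namely RAB3B, RAB17, RAB11B (-0.34) and RAB5B (-0.35). In Plasmax-TE+Fe against Plasmax RAB3B alone passed (1 of 40, against 1.20% of all genes). Against EMEM the count was 1 of 40 for Plasmax-TE, where RAB17 fell (4.81% of all genes passed), and 2 of 40 for Plasmax-TE+Fe, where RAB3B rose and RAB17 fell (9.65% of all genes passed). With the runs in the model these counts were 3 for Plasmax-TE, adding RAB2A and RAB3B (7.93% of all genes passed), and 3 for Plasmax-TE+Fe, adding RAB32 (15% of all). Tested over the 4 media together, 7 of 40 members differed (17.5%, against 18.0% of all genes): RAB3B, RAB17, RAB10, RAB32, RAB42, RAB4A and RAB7A. The 29 members other than the 11 called in Plasmax against EMEM passed in no pairwise comparison in the model of the 4 media alone.

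Of the members assigned to regulated secretion, RAB3B, RAB3D and RAB27A were measured. RAB27A (ENSG00000069974, chromosome 15), which docks secretory lysosomes and exosome-bearing compartments, had 17.7, 7.03 and 14.9 CPM in Plasmax-TE+Fe, 9.13, 9.87 and 15.2 CPM in Plasmax-TE, 20.5, 23.0 and 13.9 CPM in Plasmax, and 8.10, 8.39 and 11.4 CPM in EMEM. It rose by 0.96 ± 0.33 in Plasmax against EMEM (edgeR adjusted p = 0.045), a call lost with DESeq2 (adjusted p = 0.052), with limma-voom (0.058) and without EMEM replicate 1, 2 or 3, Plasmax replicate 1 or 2, or Plasmax-TE replicate 2 (0.053 to 0.15). Plasmax libraries lay above those of EMEM, and Plasmax-TE+Fe overlapped with all other media.

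RAB3D (ENSG00000105514, chromosome 19), the closest measured relative of RAB3B and a GTPase of secretory granules in exocrine cells, did not pass in any comparison. It had 12.6, 42.7 and 15.9 CPM in Plasmax-TE+Fe, 59.3, 24.2 and 13.6 CPM in Plasmax-TE, 13.4, 17.2 and 18.9 CPM in Plasmax, and 15.6, 18.9 and 12.3 CPM in EMEM. The values of 42.7 and 59.3 CPM belonged to the libraries that stood apart. Its log2 fold change was 0.05 ± 0.45 in Plasmax against EMEM (edgeR adjusted p = 0.96) and 0.92 ± 0.42 in Plasmax-TE against Plasmax (0.17), or 0.23 ± 0.39 (0.79) without Plasmax-TE replicate 1. How strand was handled in counting is not stated, and other annotated genes cover the 3′ end of RAB3D on both strands, so its counts may include theirs.

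Of the 12 members of recycling and delivery to the plasma membrane, RAB10 rose and RAB17 and RAB4A fell in Plasmax against EMEM, and 9 did not pass. Of all genes, 21.4% passed in that comparison. RAB10 (ENSG00000084733, chromosome 2), which brings the glucose transporter GLUT4 to the surface of fat cells and serves basolateral delivery in epithelia, had 208, 120 and 192 CPM in Plasmax-TE+Fe. It had 126, 139 and 132 CPM in Plasmax-TE, 272, 294 and 175 CPM in Plasmax, and 108, 149 and 121 CPM in EMEM. Plasmax libraries lay above all Plasmax-TE and EMEM libraries, while those of Plasmax-TE+Fe overlapped with all other media. The log2 fold change was 0.90 ± 0.21 in Plasmax against EMEM (edgeR adjusted p = 0.0038) and -0.88 ± 0.21 in Plasmax-TE against Plasmax (0.0098, and 0.065 without Plasmax replicate 2).

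RAB4A (ENSG00000168118, chromosome 1), of the fast recycling route from early endosomes, had a narrow spread. It stood at 66.4, 66.0 and 70.0 CPM in Plasmax-TE+Fe, 75.3, 78.1 and 79.0 CPM in Plasmax-TE, 58.9, 62.7 and 58.8 CPM in Plasmax, and 77.9, 89.3 and 87.4 CPM in EMEM. Plasmax was lowest and EMEM highest, with overlap only between Plasmax-TE and EMEM. RAB4A fell by 0.55 ± 0.14 in Plasmax against EMEM on the log2 scale (edgeR adjusted p = 0.0099). Other members of this group that are often studied together, RAB11A and RAB11B of the recycling endosome, RAB8A, RAB14 and RAB35, stood between -0.29 (RAB11B) and 0.42 (RAB8A and RAB14) and did not pass. RAB14 did pass with the runs of library numbers in the model (edgeR adjusted p = 0.036). It also passed with no factors beyond library size, without Plasmax replicate 3, without Plasmax-TE+Fe replicate 2 and with both libraries that stood apart left out.

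The 7 early endosome members had a median log2 fold change of 0.36 in Plasmax against EMEM (-0.01 over all genes). RAB5C alone passed, where 21.4% of all genes did. RAB5C (ENSG00000108774, chromosome 17), which with RAB5A and RAB5B controls the fusion of early endosomes, had 744, 605 and 679 CPM in Plasmax-TE+Fe, 557, 874 and 560 CPM in Plasmax-TE, 770, 1014 and 836 CPM in Plasmax, and 414, 583 and 616 CPM in EMEM. Its libraries in Plasmax and EMEM did not overlap, and it rose by 0.64 ± 0.19 (edgeR adjusted p = 0.019). Without EMEM replicate 1 the value was 0.49 ± 0.20 (0.12), and without Plasmax replicate 2 it was 0.58 ± 0.21 (0.080). RAB5A (0.41 ± 0.17) and RAB5B (-0.11 ± 0.16) did not pass, with edgeR adjusted p of 0.088 and 0.67. RAB5A passed with the runs of library numbers in the model (0.040) and with both libraries that stood apart left out. In the GENCODE annotation a second gene model, AC099811.2, covers the 3′ end of RAB5C on the same strand. Whether the annotation used for counting held it is not stated, so its bearing on the RAB5C counts is not known.

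Among 5 members of late endosomes and lysosomes, RAB7A rose and RAB32 fell in Plasmax against EMEM, and both moved the other way in Plasmax-TE against Plasmax. Of all genes, 21.4% passed in the first comparison and 11.2% in the second. RAB7A (ENSG00000075785, chromosome 3), which governs the step from late endosome to lysosome, had 159, 123 and 203 CPM in Plasmax-TE+Fe, 120, 149 and 148 CPM in Plasmax-TE, 207, 227 and 204 CPM in Plasmax, and 133, 148 and 117 CPM in EMEM. Plasmax libraries lay above all others. Its log2 fold change was 0.63 ± 0.18 in Plasmax against EMEM (edgeR adjusted p = 0.016) and -0.60 ± 0.18 in Plasmax-TE against Plasmax (0.035). The call of Plasmax-TE against Plasmax was lost without Plasmax replicate 1, 2 or 3 or Plasmax-TE replicate 1 or 2, with edgeR adjusted p of 0.064 to 0.13. The call against EMEM was lost without EMEM replicate 3 (0.084) or Plasmax replicate 2 (0.052).

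RAB32 (ENSG00000118508, chromosome 6), of melanosomes, other lysosome-related organelles and mitochondrial contacts, had 20.2, 46.0 and 24.8 CPM in Plasmax-TE+Fe, 45.7, 35.9 and 30.9 CPM in Plasmax-TE, 21.1, 19.8 and 16.6 CPM in Plasmax, and 38.0, 52.9 and 41.9 CPM in EMEM. Plasmax libraries lay below all those of Plasmax-TE and EMEM. The log2 fold change was -1.27 ± 0.25 in Plasmax against EMEM (edgeR adjusted p = 0.0011) and 0.97 ± 0.25 in Plasmax-TE against Plasmax (0.018). The second value was 0.85 ± 0.28 (0.065) without Plasmax-TE replicate 1, 0.96 ± 0.30 (0.071) without Plasmax replicate 2 and 0.90 ± 0.29 (0.058) without Plasmax replicate 3. The values of 46.0 and 45.7 CPM came from the libraries that stood apart. When both were left out, RAB32 was also lower in Plasmax-TE+Fe than in EMEM, by -1.01 ± 0.21 (edgeR adjusted p = 0.0022), where the value with them was -0.63 ± 0.23 (0.096), or -0.67 ± 0.21 (0.033) with the runs of library numbers in the model.

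Of the 8 members of the endoplasmic reticulum and Golgi, RAB2B alone passed, in Plasmax against EMEM (21.4% of all genes passed). RAB2B (ENSG00000129472, chromosome 14), a Golgi GTPase, had 80.7, 88.1 and 78.5 CPM in Plasmax-TE+Fe, 73.0, 77.6 and 74.3 CPM in Plasmax-TE, 87.7, 101 and 87.5 CPM in Plasmax, and 55.5, 73.0 and 66.4 CPM in EMEM. It rose by 0.45 ± 0.15 in Plasmax against EMEM (edgeR adjusted p = 0.038), a call that was lost without EMEM replicate 1 or 3 or Plasmax replicate 1, 2 or 3 (0.052 to 0.16), and every Plasmax library lay above every EMEM library. Its paralogue RAB2A, at -0.01 ± 0.17, did not pass (0.97). RAB1A, which takes vesicles from the endoplasmic reticulum to the Golgi, had 0.49 ± 0.23 in Plasmax against EMEM (0.13) and -0.53 ± 0.23 in Plasmax-TE against Plasmax (0.14). With the runs of library numbers in the model RAB1A passed in both comparisons (edgeR adjusted p = 0.034 and 0.029). It also passed in both without Plasmax-TE+Fe replicate 2. In Plasmax against EMEM it passed as well with only the 6 libraries compared and with both libraries that stood apart left out. In Plasmax-TE against Plasmax none of the 8 passed without the runs in the model, and their median log2 fold change was -0.31 (0.02 over all genes). With both libraries that stood apart left out, RAB1A was at -0.31 ± 0.14 (0.16) and RAB1B at 0.16 ± 0.25 (0.73) in that comparison. Other annotated genes cover the 3′ ends of RAB1A, RAB1B and RAB5A on the opposite strand, and of RAB8A on both strands. Counts of these members may include tags of those genes.

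RAB42 and RAB40B, which were assigned to none of these routes, fell in Plasmax against EMEM. RAB42 (ENSG00000188060, chromosome 1) had 26.5, 33.5 and 26.3 CPM in Plasmax-TE+Fe, 26.8, 34.1 and 18.3 CPM in Plasmax-TE, 19.8, 14.6 and 16.6 CPM in Plasmax, and 38.0, 44.9 and 29.6 CPM in EMEM. Plasmax libraries lay below all EMEM libraries and overlapped with Plasmax-TE. It fell by 1.20 ± 0.24 on the log2 scale (edgeR adjusted p = 0.0012). TAF12 covers its 3′ end on the opposite strand, so that tags of the pair may be mixed. RAB40B (ENSG00000141542, chromosome 17), the substrate receptor of a cullin ubiquitin ligase, had 10.9, 15.7 and 11.4 CPM in Plasmax-TE+Fe, 14.8, 15.3 and 15.2 CPM in Plasmax-TE, 9.60, 10.4 and 8.08 CPM in Plasmax, and 20.6, 18.5 and 13.6 CPM in EMEM. Plasmax libraries lay below all others. It fell by 0.95 ± 0.26 (edgeR adjusted p = 0.012, and 0.052 without EMEM replicate 1). RAB28 and RAB23, of the primary cilium, and RAB40C did not pass.

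**Figure D4:**
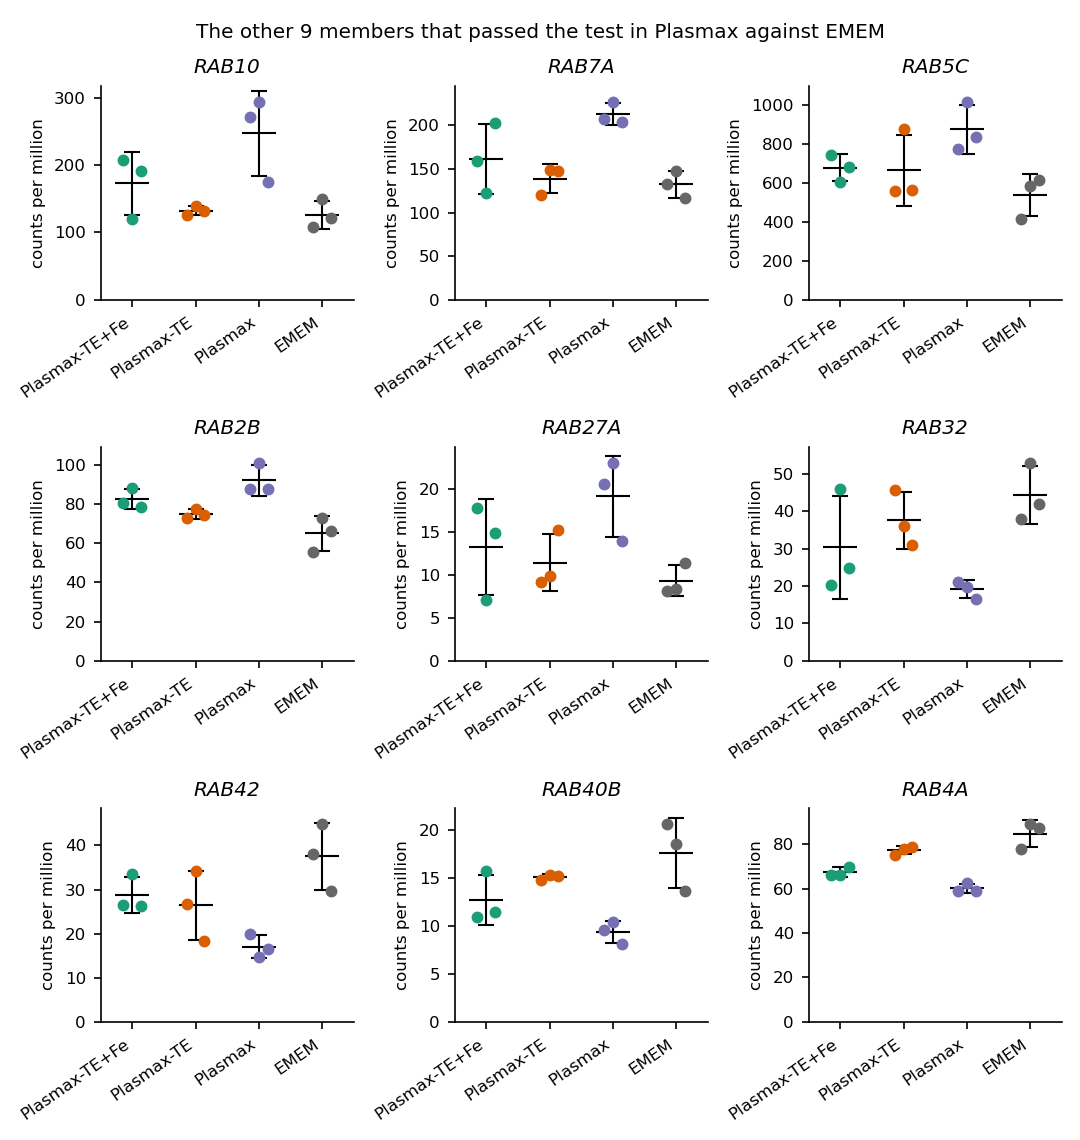
Points are the CPM per library of the 9 members besides RAB3B and RAB17 that passed in Plasmax against EMEM, by medium, with the mean and SD of 3 libraries in black and axes starting at 0. RAB10, RAB7A, RAB5C, RAB2B and RAB27A are higher in Plasmax than in EMEM, and RAB32, RAB42, RAB40B and RAB4A are lower.

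In both libraries that stood apart, 8 of 40 RAB genes lay above the other 4 libraries of these media (23.2% of all genes did) and 12 lay below (12.9% of all genes did). Above were RAB3D, RAB20 (25.1 and 25.4 CPM, against 14.4 to 15.9), RAB22A (71.3 and 71.4 CPM, against 36.6 to 56.6), RAB32, RAB13, RAB15, RAB29 and RAB8B. Below were RAB1A (126 and 128 CPM, against 196 to 254), RAB7A, RAB10, RAB12, RAB6A, RAB21, RAB11A, RAB27A, RAB28, RAB31, RAB33B and RAB4B. RAB3B lay within the range of the other libraries in both. RAB17 did so in the first Plasmax-TE library, while its 50.3 CPM in the second Plasmax-TE+Fe library was below the 59.3 to 103 CPM of the others. With both libraries left out, 15 of 40 RAB genes passed in Plasmax against EMEM (28.2% of all genes did), 4 in Plasmax-TE against Plasmax (11% of all) and 6 in Plasmax-TE+Fe against EMEM (14.1% of all).

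The machinery around the RABs was described by lists of genes in the same test. Of 8 genes for prenylation, escort and extraction, 1 rose and 1 fell in Plasmax against EMEM, where 9.90% of all genes rose and 11.5% fell. In Plasmax-TE against Plasmax 1 of the 8 fell, where 5.61% of all genes rose and 5.63% fell. CHML, an escort protein, had 17.7, 27.0 and 19.9 CPM in Plasmax-TE+Fe, 17.7, 8.53 and 3.66 CPM in Plasmax-TE, 20.5, 24.6 and 18.4 CPM in Plasmax, and 9.35, 11.3 and 8.64 CPM in EMEM. It rose by 1.05 ± 0.33 in Plasmax against EMEM (edgeR adjusted p = 0.029) and fell by 1.11 ± 0.33 in Plasmax-TE against Plasmax (0.036). RABGGTA, the alpha subunit of the geranylgeranyl transferase, fell by 0.63 ± 0.21 in Plasmax against EMEM (0.040).

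Of 26 exchange factors, 2 rose and 1 fell in Plasmax against EMEM (21.4% of all genes passed), and 1 rose and 1 fell in Plasmax-TE against Plasmax (11.2% of all genes). DENND10, a DENN domain protein, was at 13.2 ± 0.792 CPM in Plasmax and 27.0 ± 4.26 CPM in EMEM (log2 fold change -1.08 ± 0.22, edgeR adjusted p = 0.0014). MON1B, of the complex that activates RAB7, was at 138 ± 4.93 CPM in Plasmax and 94 ± 8.98 CPM in EMEM (0.51 ± 0.14, adjusted p = 0.015).

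Of 28 GTPase-activating proteins, 2 rose and 3 fell in Plasmax against EMEM (21.4% of all genes passed), and 1 rose and 4 fell in Plasmax-TE against Plasmax (11.2% of all genes). RAB3GAP1, the catalytic subunit of the GAP for RAB3 proteins, had 86.2, 66.5 and 89.4 CPM in Plasmax-TE+Fe, 65.1, 59.2 and 58.1 CPM in Plasmax-TE, 110, 111 and 101 CPM in Plasmax, and 87.8, 83.9 and 86 CPM in EMEM. It fell by 0.81 ± 0.16 in Plasmax-TE against Plasmax (edgeR adjusted p = 0.0022). TBC1D4, known as a GAP for RAB10, had 72.3, 81.1 and 65.1 CPM in Plasmax-TE+Fe, 86.7, 89.3 and 72.2 CPM in Plasmax-TE, 62.7, 77.3 and 57.5 CPM in Plasmax, and 95.9, 131 and 105 CPM in EMEM. It fell by 0.81 ± 0.16 in Plasmax against EMEM (0.0012). Its paralogue TBC1D1 fell by 0.79 ± 0.21 in that comparison (0.0097), while TBC1D5, which acts on RAB7, rose by 0.78 ± 0.18 (0.0036).

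Of 40 effectors, 1 rose and 4 fell in Plasmax against EMEM (21.4% of all genes passed), with a median log2 fold change of -0.15 (-0.01 over all genes). In Plasmax-TE against Plasmax 1 rose and 1 fell (11.2% of all genes passed). Against EMEM 2 fell in Plasmax-TE (4.81% of all genes), and 1 rose and 4 fell in Plasmax-TE+Fe (9.65%). The effector that rose was ANKFY1, by 0.75 ± 0.18 in Plasmax against EMEM (edgeR adjusted p = 0.006) and 0.63 ± 0.18 in Plasmax-TE+Fe against EMEM (0.034). RAB11FIP4, which binds RAB11 on recycling endosomes, had 49.6, 81.7 and 55.1 CPM in Plasmax-TE+Fe, 123, 90.2 and 109 CPM in Plasmax-TE, 55.7, 43.4 and 65.1 CPM in Plasmax, and 151, 150 and 147 CPM in EMEM. It fell by 1.49 ± 0.19 in Plasmax against EMEM (edgeR adjusted p = 1.3e-05) and by 1.33 ± 0.19 in Plasmax-TE+Fe against EMEM (9.7e-05), and rose by 0.96 ± 0.19 in Plasmax-TE against Plasmax (0.0030). OPTN, optineurin, a partner of RAB8, was at 44.6 ± 10.6 CPM in Plasmax-TE+Fe, 59.6 ± 15.0 in Plasmax-TE, 58.8 ± 9.36 in Plasmax and 105 ± 18.9 in EMEM. It fell against EMEM in Plasmax-TE+Fe by 1.29 ± 0.19 (edgeR adjusted p = 1.9e-04), in Plasmax-TE by 0.87 ± 0.19 (0.010) and in Plasmax by 0.89 ± 0.19 (0.0023). MYO5B, a myosin motor recruited by RAB11, had 8.56, 10.3 and 10.5 CPM in Plasmax-TE and 23.0, 25.1 and 18.9 CPM in Plasmax, and fell in Plasmax-TE by 1.16 ± 0.27 (edgeR adjusted p = 0.0089). In Plasmax-TE+Fe against Plasmax-TE none of the genes on these 4 lists passed.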

How the data were processed

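Total RNA of HepG2 cells was turned into 12 QuantSeq 3′ libraries, 3 per medium. The submitters' processing notes list the build hg19 (GRCh37) and the tools STAR 2.7.5b, featureCounts 1.6.3, cutadapt 1.16, FastQC 0.72 and limma 3.40.6. The sources used here do not state the annotation, the strand setting or how reads with several matches were counted. The authors deposited whole-number raw counts for each gene, not normalized. Of 10994 entries, 54 repeated an Ensembl identifier with identical counts and were dropped, leaving 10940. In this table the third-highest level of each gene was 4.04 CPM or more.

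CPM are counts scaled to a library total of 1000000. Counts were tested in R 4.3.3 with edgeR 4.0.16: TMM factors (0.964 to 1.056), filterByExpr at its defaults (minimum count 10, minimum total 15; 481 genes removed), a quasi-likelihood model of the 4 media on all 12 libraries, two-sided tests and Benjamini-Hochberg adjustment over 10459 genes. The model was tested on simulated data. Precision is limited by counting error at low levels and by 3 libraries per medium.

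The members, the singling out of RAB3B and RAB17, the gene lists and the motifs were chosen with earlier results of these data known. Members that passed in any comparison, RAB3B, RAB17 and RAB3D are named, with a selection of the genes that passed on each list. Each gene so selected was among the 4 of lowest p of its list in some comparison. Other genes that passed, some of lower p, are not named. Some results of the ARF and SAR list are not reported here. Other settings tried were DESeq2 1.42.0, limma-voom 3.58.1, RLE factors, no factors beyond library size, other filters, a replicate block, a block for the runs of library numbers 85 to 88, 89 to 92 and 93 to 96, only the 6 libraries compared, and libraries left out.

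No 2 libraries of the same medium agreed within counting noise. In EMEM, Plasmax and Plasmax-TE the replicate number coincides with the run of library numbers, and same-numbered libraries of these media deviated together weakly (correlations of 0.041 to 0.173), with all 3 pairs over 0.1 between Plasmax-TE and EMEM only. The numbers of Plasmax-TE+Fe follow another order of runs, and its same-numbered pairs ran from -0.433 to 0.146. Libraries of a run correlated at 0.025 to 0.534, and the highest value was that between both libraries that stood apart. Pairs of a run that include a Plasmax library correlated at only 0.025 to 0.098. The block for runs thus follows a pairing seen mainly among the other media, and the labels do not say what a run is.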

Additional observations from a re-analysis of the deposited data

How the results depend on the processing

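No result of a named RAB gene changed sign under an alternative in which it was called. For genes of the other lists, results were taken from the model of the 4 media alone, and their dependence on the processing was not tested. The calls and non-calls of RAB3B and RAB17 stayed the same under every alternative in all 6 comparisons, except that RAB3B in Plasmax-TE against EMEM (0.63) passed with the library-number block (adjusted p = 0.045). The RAB3B log2 fold change ranged over all alternatives from 2.60 to 2.81 in Plasmax against EMEM and from -2.15 to -2.01 in Plasmax-TE against Plasmax, and that of RAB17 in Plasmax against EMEM from -2.57 to -2.26. With the library-number block 15 members were called in Plasmax against EMEM (27.8% of all genes passed) and 11 in Plasmax-TE against Plasmax (17.8%). That block gave 3 in Plasmax-TE against EMEM (7.93% of all genes), 3 in Plasmax-TE+Fe against EMEM (15%) and 11 over the 4 media together (27.1%). With both libraries that stood apart left out, 6 were called in Plasmax-TE+Fe against EMEM (14.1% of all genes). The cause of these changes was not tested. The replicate block gave 10 members in Plasmax against EMEM (RAB27A lost, 19.9% of all genes passed), 4 in Plasmax-TE against Plasmax (9.79%) and 5 over the 4 media (15.9%). It changed no call of RAB3B or RAB17. When libraries were left out one at a time, the count in Plasmax against EMEM ran from 7 to 14. It was 7 without EMEM replicate 1 (15.2% of all genes passed) or Plasmax replicate 2 (13.9%), and 14 without Plasmax-TE+Fe replicate 2 (24.7%). In Plasmax-TE against Plasmax the count ran from 1 without Plasmax replicate 2 (4.46% of all genes passed) to 7 without Plasmax-TE+Fe replicate 2 (14.7%). It was 2 without Plasmax-TE replicate 1 (6.97%). In Plasmax-TE+Fe against EMEM it was 4 without Plasmax-TE+Fe replicate 2 (10.7% of all genes passed) and otherwise 2 (5.7% to 11.5%). Over the 4 media it ran from 3 without Plasmax replicate 2 (11.9%) to 10 without Plasmax-TE+Fe replicate 2 (23%). The count stayed at 0 in Plasmax-TE+Fe against Plasmax-TE (0% to 2.14% of all genes). It stayed at 1 in Plasmax-TE+Fe against Plasmax (0.29% to 1.59%) and in Plasmax-TE against EMEM (2.44% to 6.34%). A member at 5 CPM rests on few counts, so small changes of such genes were not detectable at this depth.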

Other observations

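GTPases related to the RABs were measured in the same test. Of 4 RAB-like genes, RABL6 alone passed, and only in the comparisons with EMEM. Of all genes, 9.65% passed in Plasmax-TE+Fe, 4.81% in Plasmax-TE and 21.4% in Plasmax against EMEM. RABL6 was at 164 ± 17.4 CPM in Plasmax-TE+Fe, 160 ± 9.77 CPM in Plasmax-TE, 124 ± 15.8 CPM in Plasmax and 269 ± 9.59 CPM in EMEM (SD, n = 3 each). Against EMEM it fell by 0.76 ± 0.15 in Plasmax-TE+Fe (edgeR adjusted p = 0.0023), by 0.80 ± 0.15 in Plasmax-TE (0.0031) and by 1.17 ± 0.15 in Plasmax (1.8e-05) on the log2 scale.

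Of 20 genes of the ARF and SAR family, which direct coat assembly and lipid signalling on the same membranes, 2 rose in Plasmax against EMEM, where 9.90% of all genes rose, and the median log2 fold change was 0.11 (-0.01 over all genes). ARF3, a Golgi GTPase, rose by 0.67 ± 0.19 (edgeR adjusted p = 0.014) and ARL2 rose by 0.62 ± 0.22 (0.048).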
